A study of Mus musculus with 4 samples.

Results

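Broad domains occupied by BAP1, HCF1 and OGT together were described in mouse bone marrow derived macrophages. The peaks of the 3 proteins were joined wherever they overlapped or touched, which gave 34834 merged regions. A broad domain was a merged region on chromosomes 1 to 19 with at least 1 peak of each protein and a width of 5000 bp or more. This rule took 354 domains, 6.22% of the 5691 autosomal regions with all 3 proteins (exact 95% interval 5.61 to 6.88%) and 1.03% of all 34244 autosomal merged regions. Regions with all 3 proteins are called shared regions below, and the 5337 under 5000 bp are called narrower shared regions.

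The proteins were mapped by ChIP-seq, in which DNA bound by a protein is precipitated with an antibody and sequenced. The cells were untreated primary macrophages of strain C57BL/6, grown from marrow in L929-conditioned medium, with 1 library per protein. BAP1 was precipitated with anti-FLAG from cells labelled as a knock-in with a 3X FLAG tag on BAP1, and HCF1 and OGT were precipitated with their own antibodies from BAP1 wild-type cells. The name of the deposited BAP1 list marks it as wild type, against this label, and the lists offer no check of the genotype. The label is followed here, and each BAP1 value below rests on it. A wild-type input library was also described, and its reads were not analysed here. The number of animals behind each culture is not given in the labels, and the labelled cell type was not checked against marker genes, since no gene was placed on these coordinates.

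BAP1 is a deubiquitinase that removes ubiquitin from histone H2A, and it is known as a tumour suppressor. HCF1 is a scaffold that binds BAP1 and many transcription factors, and it brings chromatin enzymes to promoters. OGT adds O-linked N-acetylglucosamine to nuclear proteins, and it both modifies and cleaves HCF1. The 3 proteins are known to be found in common complexes, and the design asks where each sits on the genome.

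The members were chosen by the positions and widths of the same peaks that are described here. All values of width, coverage, number of peaks and score below are therefore descriptions, and no test was applied. Intervals are exact Clopper-Pearson 95% intervals and cover counting error only. There is no spread between libraries to set a difference against. No read totals are known for the lists, so a stretch without a peak is not shown to be free of the protein. Fewer or weaker peaks of a protein also cannot be told apart from a shallower library.

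The 354 domains had a median width of 6291.5 bp and ranged from 5004 to 22520 bp. Their number follows from the limits set: it was 630 with a limit of 4000 bp, 198 with 6000 bp and 791 when peaks within 1000 bp were joined. When the span under all 3 proteins had to reach 5000 bp, 91 domains were left. The quartiles were 5447.75 and 7492.75 bp, and 30 domains reached 10000 bp. Together they spanned 2.45 Mb. They held 509 BAP1 peaks (2.93% of the autosomal BAP1 peaks), 731 HCF1 peaks (2.36%) and 737 OGT peaks (7.20%). Measured by sequence under peaks the shares were larger, at 7.40% for BAP1, 7.07% for HCF1 and 13.2% for OGT. OGT thus had the largest part of its called sequence in these domains, in a list that was also the shortest.

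The width limit cut a continuous series of widths. The domains just inside it were chr17:53705268-53710271 at 5004 bp, chr8:124952599-124957606 at 5008 bp and chr5:121846939-121851952 at 5014 bp. The shared regions just outside it were chr15:59477889-59482874 at 4986 bp, chr17:71180517-71185500 at 4984 bp and chr2:13493399-13498376 at 4978 bp. The 3 outside had 68.4%, 53.0% and 39.0% of their width under OGT peaks, and the 3 inside had 13.3%, 62.0% and 78.2%.

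Wide merged regions mostly held all 3 proteins. Of 419 autosomal merged regions of that width, 354 held all 3 proteins (84.5%, interval 80.7 to 87.8%). A further 32 held HCF1 and OGT without BAP1, 21 held BAP1 and HCF1 without OGT, 11 held HCF1 alone and 1 held OGT alone. No region of BAP1 alone (0 of 4075, interval up to 0.0905%) or of BAP1 and OGT without HCF1 (0 of 295, interval up to 1.24%) was that wide. Among regions of HCF1 and OGT 1.83% were that wide, and among regions of BAP1 and HCF1 0.304%. The share among shared regions, 6.22%, is raised by the merging itself, because joining peaks of 3 lists can only widen a region. All but 1 of the 419 contained HCF1, the protein with the longest peak list.

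Most domains contained at least 1 peak that was itself 5000 bp or wider. This held for 239 of 354 domains (67.5%, 62.4 to 72.4%). With a width limit of 4000 bp the share was 37.9%, and it has to be lower there, because a region under 5000 bp cannot hold such a peak. It was 30.0% of 791 domains when peaks within 1000 bp were joined, a step that does not widen any peak. A peak of 5000 bp or more was called for HCF1 in 157 domains, for BAP1 in 137 and for OGT in 37, and for all 3 proteins in 17 domains. The other 115 domains were chains of narrower peaks, with a median width of 5476 bp and a median of 6 peaks, against 6852 bp and 5 peaks in the domains with a wide peak. Wide peaks lay mostly inside the domains: 137 of 150 autosomal BAP1 peaks of 5000 bp or more, 158 of 203 HCF1 peaks and 37 of 45 OGT peaks. Such a peak meets the width limit by itself, so it lies outside only where its merged region lacks another protein. These counts are therefore bound to the rule and are not a separate trait.

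HCF1 and OGT were more often split into several peaks than BAP1. In 218 domains (61.6%) BAP1 had exactly 1 peak, compared with 132 domains for HCF1 (37.3%) and 104 for OGT (29.4%). At least 2 peaks were found in 136 domains for BAP1 (38.4%), 222 for HCF1 (62.7%) and 250 for OGT (70.6%). Over all shared regions these shares were 6.03% for BAP1, 21.3% for HCF1 and 14.4% for OGT, but those regions are mostly narrow and leave less room for several peaks. All 3 proteins had 2 or more peaks in 74 domains (20.9%), against 1.97% of all shared regions. That share was 9.70% with scores of at least 100, 11.7% with lists of equal length and 44.0% with peaks within 1000 bp joined. The most frequent make-up was 1 BAP1, 1 HCF1 and 2 OGT peaks, in 41 domains, and 36 domains had 1 peak of each protein.

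**Figure D1:**
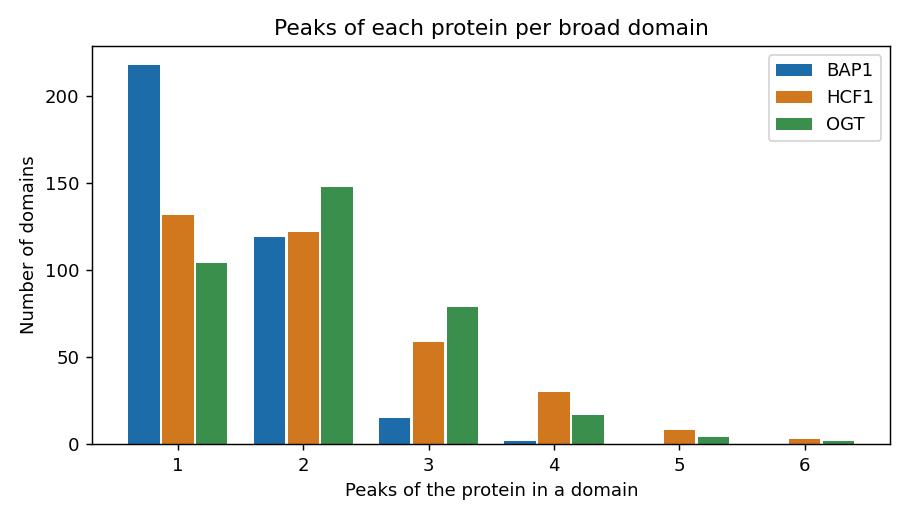
Number of the 354 broad domains (y axis) that contained 1 to 6 peaks (x axis) of BAP1, HCF1 or OGT, as bars by protein. BAP1 bars are highest at 1 peak with 218 domains, while OGT bars are highest at 2 peaks with 148.

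Gaps between neighbouring peaks of a protein within a domain were short for HCF1. The median gap was 111 bp over 377 HCF1 gaps, 341 bp over 155 BAP1 gaps and 345 bp over 383 OGT gaps. The longest was an OGT gap of 10022 bp. BAP1 peaks covered 90.04% of the sequence in HCF1 gaps, and HCF1 peaks covered 96.8% of the sequence in BAP1 gaps. Of the sequence in OGT gaps, 64.0% lay under BAP1 and HCF1 at once. By definition of a merged region, each base in a domain is under at least 1 peak, so a gap of 1 protein must lie under another.

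Many OGT peaks, but not all, lay wholly inside a longer peak of BAP1 or of HCF1. Of the 737 OGT peaks in domains, 408 (55.4%) fell wholly within a BAP1 peak and 411 (55.8%) wholly within an HCF1 peak. Of the 731 HCF1 peaks, 314 (43.0%) fell within a BAP1 peak, and of the 509 BAP1 peaks, 155 (30.5%) fell within an HCF1 peak. In the reverse direction, 9.63% of BAP1 peaks and 8.48% of HCF1 peaks fell within an OGT peak. A single BAP1 peak overlapped 2 or more HCF1 peaks in 206 of 509 cases (40.5%). Median peak widths in domains were 3161 bp for BAP1, 2180 bp for HCF1 and 1597 bp for OGT. A narrower peak fits more easily inside a wider one, so the order of these shares is bound to peak width. Nesting was not counted in the narrower shared regions.

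The share of each domain under peaks was highest for HCF1 and lowest for OGT. HCF1 peaks covered a median of 93.6% of the domain (lowest 36.4%, highest 100%), BAP1 peaks 87.2% (8.23 to 100%) and OGT peaks 64.7% (7.84 to 100%). With peaks within 1000 bp joined, which adds sequence under no peak, the OGT median was 42.0%. HCF1 covered more of the domain than BAP1 in 208 domains (58.8%), and BAP1 covered more than HCF1 in 146 (41.2%). OGT covered less than both others in 241 domains (68.1%), a share that was not counted over all shared regions. In narrower shared regions OGT also had the lowest median cover, 57.9%, against 89.8% for BAP1 and 83.1% for HCF1. HCF1 had the largest share in 197 domains (55.6%), BAP1 in 141 (39.8%) and OGT in 16 (4.52%). The share of OGT was 2.24% with scores of at least 100, and that of HCF1 exceeded that of BAP1 under each of the 7 alternatives run. The lead of HCF1 was smallest with lists of equal length. There it was 48.5% (42.7 to 54.3%) against 45.5% for BAP1 (39.7 to 51.3%), with intervals that overlapped. They also overlapped with scores of at least 100, at 52.6% (46.4 to 58.7%) for HCF1 and 45.1% (39.1 to 51.3%) for BAP1. The same held where the span under all 3 had to reach 5000 bp, at 54.9% (44.2 to 65.4%) and 40.7% (30.5 to 51.5%). Over all shared regions the largest share belonged to HCF1 in 39.1%, to BAP1 in 53.6% and to OGT in 7.2%. With the full lists, of which that of HCF1 is the longest, the order of HCF1 and BAP1 was thus the opposite in the domains and in all shared regions. The shares over all shared regions were not recomputed with lists of equal length.

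Just under 50% of the domain sequence lay under all 3 proteins at once. Summed over domains, 47.6% of the sequence was under all 3, 33.5% under exactly 2 and 18.9% under exactly 1. The median domain had 47.3% under all 3, close to the 47.5% of narrower shared regions. With peaks within 1000 bp joined it was 29.2%. Among stretches with exactly 2 proteins, BAP1 with HCF1 made up 21.4% of the domain sequence, HCF1 with OGT 10.3% and BAP1 with OGT 1.82%. HCF1 alone covered 9.89%, BAP1 alone 7.61% and OGT alone 1.43%. The sequence under all 3 was broken into 2 or more stretches in 245 domains (69.2%, against 17.6% of all shared regions, which are mostly narrow), and the longest such stretch had a median of 1845 bp. In 15 domains (4.24%) a single stretch under all 3 reached 5000 bp.

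In 3 domains (0.847%) no base lay under all 3 proteins, against 2.07% of all shared regions. These were chr12:86092148-86097356, chr13:41698290-41704070 and chr19:29453241-29461129. HCF1 covered 100%, 98.7% and 95.6% of them, while BAP1 covered 24.4%, 35.5% and 12.4% and OGT 17.6%, 10.9% and 31.1%.

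Domains with little BAP1 and domains with little HCF1 were different domains. BAP1 peaks covered less than 50% of the width in 54 domains (15.3%, against 4.88% of all shared regions), where HCF1 covered between 77.5% and 100%. HCF1 peaks covered less than 50% in 5 domains (1.41%, against 8.4%), where BAP1 covered between 79.5% and 100%. No domain had both under 50%. The Spearman correlation between the shares of BAP1 and HCF1 over the 354 domains was -0.55. This is a description only: every base of a domain has to lie under some peak, so a low share of 1 protein requires a high share of another. OGT showed a rho of 0.25 with HCF1 and -0.23 with BAP1.

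**Figure D2:**
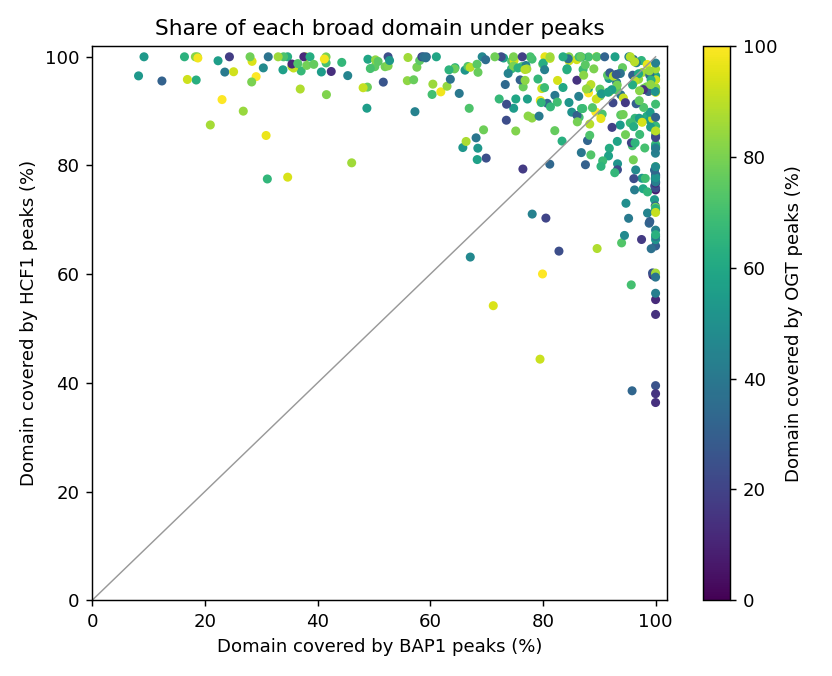
Each point is 1 of the 354 domains, by the percentage of its width under BAP1 peaks (x axis) and under HCF1 peaks (y axis), coloured by the percentage under OGT peaks; the grey line marks equal shares. Points run along the upper and the right margin, and 54 domains have BAP1 under 50% while 5 have HCF1 under 50%.

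The 54 domains with little BAP1 had lower BAP1 scores than the other 300, while the share with a top-decile HCF1 peak was nearly equal in both groups. Their best HCF1 peak had a median score of 1669.47, and their best OGT peak 329.24, compared with 1298.77 and 277.85 in the other 300 domains. The score is the authors' number for each peak, and it is compared here only within a list. Coverage and score come from the same peaks. Their Spearman correlation over the 354 domains was 0.62 for BAP1, 0.42 for HCF1 and 0.61 for OGT. Lower BAP1 scores in domains chosen for low BAP1 coverage are therefore not separate evidence. The same holds for each group below that was chosen by the coverage of a protein and is described by its score. The best BAP1 peak had a median score of 149.78 in the 54 domains and 524.46 in the 300. The best BAP1 peak was in the top score decile of its list, above percentile 90, in 4 of the 54 (7.41%) and in 224 of the 300 (74.7%). For HCF1 these counts were 47 (87.0%) and 262 (87.3%), and for OGT 34 (63.0%) and 159 (53.0%). OGT covered a median of 74.4% of these domains and 62.7% of the others.

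The least BAP1 coverage was found in chr11:119338755-119353982, a domain of 15228 bp. A single BAP1 peak of 1254 bp covered 8.23% of it, near the right edge, with a score of 200.07. The same domain held 4 HCF1 peaks over 96.5% and 4 OGT peaks over 53.5% of its width, with best scores of 1935.73 and 196.83. In chr7:132715574-132728048, of 12475 bp, a single HCF1 peak spanned 100% of the domain and OGT covered 53.9% in 1 peak. BAP1 had 1 peak of 1148 bp there, with a score of 60.80, low in its list at percentile 14.2. A similar picture was seen in chr2:166879990-166890063, where HCF1 covered 100%, OGT 82.2% and BAP1 18.3%. The 32 regions of 5000 bp or more with HCF1 and OGT but no BAP1 peak had a median of 99.4% under HCF1 and 64.4% under OGT. Their best HCF1 and OGT peaks had median scores of 1147.62 and 182.075, below those of the 54 domains.

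At the other end, some domains lay wholly under BAP1. BAP1 peaks covered the full width of 48 domains (13.6%), HCF1 peaks of 36 (10.2%) and OGT peaks of 4 (1.13%). Over all shared regions these shares were 26.2%, 9.1% and 1.55%, so full cover by BAP1 was less frequent in the domains than in the shared regions as a whole. The 48 domains had a median best BAP1 score of 916.4, and 46 of them had a best BAP1 peak in the top decile of its list. HCF1 covered a median of 78.1% and OGT 45.8% of them. The longest were chr4:136440238-136452061, of 11824 bp, and chr9:45052633-45064219, of 11587 bp. In the latter, 1 BAP1 peak lay over 5 HCF1 peaks and 2 OGT peaks, which covered 65.2% and 30.1% of the width. The 21 regions of 5000 bp or more with BAP1 and HCF1 but no OGT peak had a median of 99.3% under BAP1 and 68.3% under HCF1, with a median best HCF1 score of 473.31, against 1369.45 in the 354 domains.

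The lowest HCF1 shares were found in chr2:58008533-58014406 at 36.4% and chr15:3219402-3225523 at 38.0%. BAP1 covered 100% of both, with best scores of 738.91 and 762.99. HCF1 scored 487.47 and 210.84 in them and OGT 117.50 and 110.04. Neither domain had another shared region nearby, the distances being 1705411 and 719386 bp.

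OGT peaks covered less than 25% of the width in 35 domains (9.89%, against 4.29% of all shared regions). Of these, 4 were among the 54 domains with little BAP1 and 2 among the 5 with little HCF1. The best OGT peak of these domains had a median score of 100.8, and 1 of the 35 was in the top decile of its list. BAP1 covered a median of 93.2% of them and HCF1 83.7%. The lowest OGT share, 7.84%, was in chr6:123208724-123218711, where BAP1 covered 100% of 9988 bp and HCF1 75.5%. It was followed by chr13:41698290-41704070, mentioned above, at 10.9%.

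OGT peaks covered 90% or more of the width in 34 domains (9.60%, against 7.03% of all shared regions), with a median best OGT score of 415.69. It covered the full width of chr17:26638554-26647391, of 8838 bp, together with 93.4% under HCF1 and 88.1% under BAP1. It also spanned chr16:97754597-97763400, of 8804 bp, where HCF1 covered 92.1% and BAP1 23.0%. The best HCF1 score in the latter was 3133.52 and the best BAP1 score 66.43, at percentile 20.3 of the BAP1 list.

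The outer edges were set by HCF1 and BAP1 about equally often. A single protein set both edges in 172 domains (48.6%, interval 43.3 to 53.9%), against 43.7% of all shared regions. This protein was HCF1 in 84 domains, BAP1 in 79 and OGT in 9. OGT reached at least 1 edge in 91 domains (25.7%), BAP1 in 217 (61.3%) and HCF1 in 230 (65.0%).

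Coverage rose from the edges inwards for each protein. An edge is by definition the end of the outermost peak, so low values at the edge follow from the merging and are not a separate trait. At the outermost base, 41.8% of domain ends lay under BAP1, 44.4% under HCF1 and 14.1% under OGT. At a depth of 10% of the width the values were 75%, 87.0% and 53.1%, and at 20% they were 83.1%, 90.8% and 64.5%. At the centre they were 83.9%, 96.3% and 71.5%, and all 3 proteins coincided in 60.7% of domains. BAP1 coverage therefore stayed near its level at 20% of the width, and HCF1 coverage went on rising towards the centre.

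**Figure D3:**
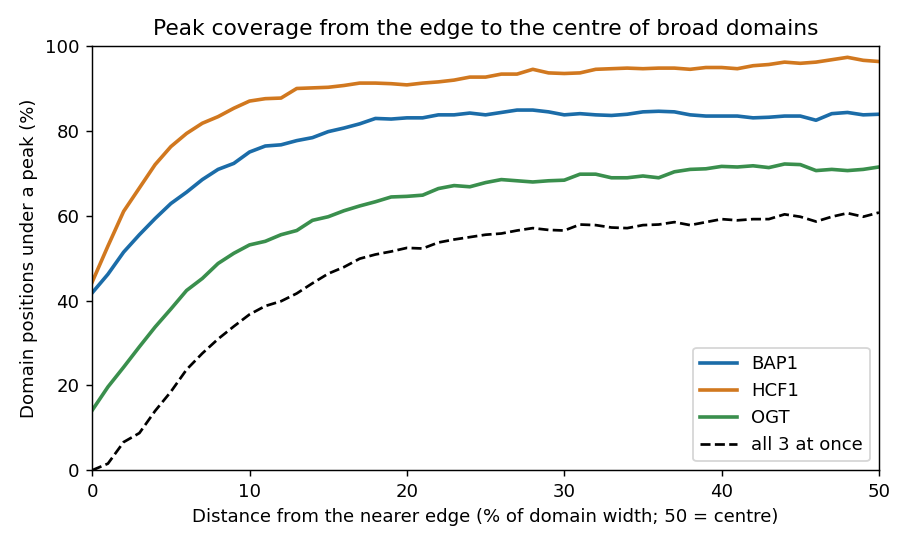
Percentage of domain positions under a peak of BAP1, HCF1, OGT or all 3 at once (y axis) by distance from the nearer edge as a percentage of domain width (x axis, 50 is the centre), over both sides of the 354 domains. HCF1 lies highest at 96.3% at the centre, OGT lies lowest of the 3 proteins at 71.5%, and each line is lowest at the edge. The edge is by definition the end of the outermost peak.

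The strongest peaks of the 3 proteins often had different centres within a domain. A centre is the midpoint of a peak, so peaks with different centres can still overlap. Of all peaks in domains, 99.8% of BAP1 peaks and 99.5% of OGT peaks overlapped an HCF1 peak. The centres of the best-scoring peaks lay a median of 859.25 bp apart for BAP1 and HCF1, 950.75 bp for BAP1 and OGT and 956.25 bp for HCF1 and OGT. In narrower shared regions the medians were 170.5, 206 and 215.5 bp. Since wider regions leave more room, the distances are given as they are. They exceeded 1 kb in 160 domains for BAP1 and HCF1 (45.2%), 165 for BAP1 and OGT (46.6%) and 171 for HCF1 and OGT (48.3%). The best OGT peak was centred farthest from the domain centre, at a median of 17.8% of the width, compared with 9.97% for BAP1 and 7.77% for HCF1. A peak that spans most of a domain has to be centred near its middle, so this offset is bound to peak width. The widest peak in a domain had a median of 2350 bp for OGT, 4348.5 bp for BAP1 and 4746 bp for HCF1.

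The domains held many of the highest-scoring peaks. The best peak was in the top decile of its own list in 309 domains for HCF1 (87.3%), 228 for BAP1 (64.4%) and 193 for OGT (54.5%). Over all shared regions these shares were 39.8%, 24.5% and 14.2%. All 3 best peaks were in the top decile in 125 domains (35.3%, interval 30.3 to 40.5%), against 6.03% of all shared regions, and none was in 13 domains (3.67%). The share with none was not counted over all shared regions. The share with all 3 was 63.7% where the span under all 3 had to reach 5000 bp and 22.8% with joined peaks. Of the 100 highest-scoring autosomal peaks of each list, the domains held 65 of HCF1, 61 of BAP1 and 34 of OGT. Width and score come from the same peak calls, so this is a property of the lists and is not an independent trait of the domains.

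Best scores were mostly higher in the wider classes of shared regions, and the domains continued that series. From 4000 to 5000 bp, 77.5% of 276 regions had a best HCF1 peak in the top decile of its list, 51.1% a best BAP1 peak and 31.9% a best OGT peak. From 5000 to 7000 bp the shares were 84.8%, 64.3% and 48.3% of 230 domains. At 10000 bp or more they were 93.3%, 76.7% and 80.0% of 30 domains. The median OGT score went from 88.02 between 1000 and 2000 bp to 257.08 between 5000 and 7000 bp and 416.04 in the widest class. The median BAP1 score was 445.76, 487.60 and 437.54 in the 3 classes of domains and did not rise steadily with width. The share with a best BAP1 peak in the top decile was 64.3%, 60.6% and 76.7% in these classes. The Spearman correlation of width with best score over the 354 domains was 0.34 for HCF1, 0.25 for OGT and 0.14 for BAP1, as a description of points that share their libraries.

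**Figure D4:**
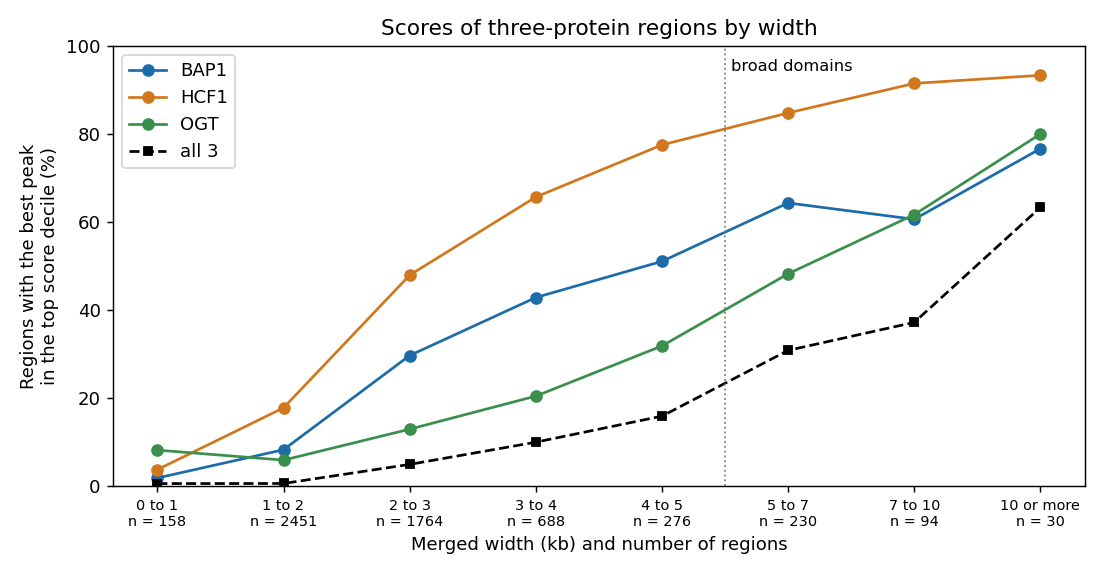
Percentage of autosomal shared regions whose best peak was in the top score decile of its list (y axis), by class of merged width in kb with the number of regions (x axis), for BAP1, HCF1, OGT and all 3; the dotted line marks 5 kb. HCF1 reaches 93.3% and OGT 80.0% in the widest class, and BAP1 reads 64.3%, 60.6% and 76.7% in the 3 classes of domains.

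Weak peaks were also part of the domains. Of the peaks in domains, 99 BAP1 (19.4%), 132 HCF1 (18.1%) and 194 OGT peaks (26.3%) scored below the middle of their list. The best BAP1 peak itself was below the middle of its list in 30 domains (8.47%), the best OGT peak in 28 (7.91%) and the best HCF1 peak in 1 (0.282%). The lower quartile of the best-peak percentile was 81.8 for BAP1, 95.2 for HCF1 and 76.1 for OGT in the domains. In narrower shared regions it was 48.3, 70.7 and 35.2. Best BAP1 and OGT peaks below the middle of their list were thus more frequent in narrower shared regions than in the domains.

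The widest domain, chr19:5829761-5852280, spanned 22520 bp and was covered to 98.4% by BAP1, 89.1% by HCF1 and 61.6% by OGT. A BAP1 peak of 17840 bp, an HCF1 peak of 15817 bp and an OGT peak of 13081 bp lay over each other in its right part, with scores of 2631.66, 3100.00 and 1093.41. The left part, before the first OGT peak, held 1 further BAP1 peak with a score of 519.80, and 4 small HCF1 peaks that scored between 103.25 and 225.97. An uninterrupted stretch of 12827 bp lay under all 3 proteins.

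The second widest, chr10:59739744-59760447, spanned 20704 bp with lower scores. BAP1 covered 98.6% of it in 2 peaks that scored 139.41 and 322.59. HCF1 had 4 peaks, the widest of 9830 bp with a score of 1457.10, and OGT had 5 peaks with a best score of 375.29. All 3 proteins overlapped in 40.1% of the domain, in 4 stretches.

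Next came a pair of domains on chromosome 7 of nearly equal width. In chr7:149559490-149575000, of 15511 bp, a BAP1 peak of 15440 bp had a score of 91.02, below the middle of its list. OGT covered 11.0% of that domain in 2 small peaks, and HCF1 59.8% in 6 peaks. In chr7:29156709-29172115, of 15407 bp, HCF1 had 1 peak of 14965 bp with a score of 3100.00 and OGT a peak of 9633 bp with a score of 3100.00. BAP1 scored 420.36 at best there, and all 3 proteins covered 84.9% of the domain. The widths of these domains were thus alike while their scores and OGT coverage were far apart.

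The remaining domains among the 10 widest lay on chromosomes 11, 5, 3, 13 and 7. The domains chr11:119338755-119353982 and chr7:132715574-132728048 are described above for their low BAP1 share. In chr5:143660790-143674594 (13805 bp) BAP1 covered 73.0% with a score of 1784.09 and OGT 56.1% with 181.39. In chr3:95460428-95473920 (13493 bp) HCF1 covered 99.5%, OGT 93.3% and BAP1 86.0%, and 84.7% lay under all 3. The domain chr13:51825903-51839089 (13187 bp) had the most peaks of any, 13, namely 6 HCF1, 4 OGT and 3 BAP1 peaks. The tenth, chr7:31196561-31208931 (12371 bp), was covered to 98.1% by BAP1, 83.2% by HCF1 and 70.4% by OGT. The next highest number, 11 peaks, was counted in 5 domains, of which the widest were the domain on chromosome 10 above and chr6:122795312-122807022.

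**Figure D5:**
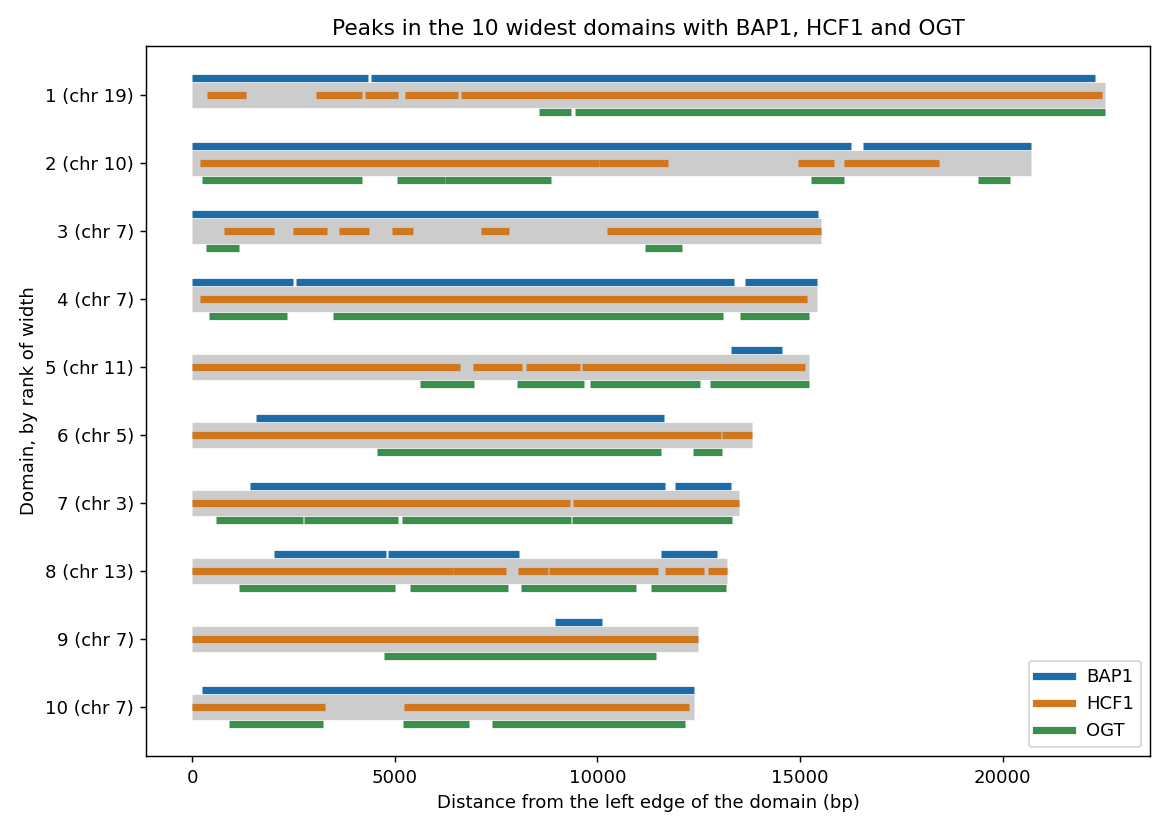
Peaks of BAP1, HCF1 and OGT (coloured bars) in the 10 widest domains (grey, ranked by width on the y axis with their chromosome), by distance from the left edge in bp (x axis). BAP1 spans nearly all of ranks 1 to 4 and 10, but only 8.23% of rank 5 and 9.20% of rank 9.

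By the lowest of its 3 within-list percentiles, the strongest domain was chr17:39979405-39985955. It had 1 peak of each protein over 6551 bp, where BAP1 and HCF1 both scored 3100.00 and OGT scored 2819.58, and 92.2% of it lay under all 3. The nearest other merged region of any kind was 1024160 bp away, whereas the median domain had one at 0.5935 kb. The next by this measure were chr17:34251041-34263139, chr10:80596127-80603400, chr8:87496874-87507342 and chr4:141424858-141431889. All 4 had an HCF1 score of 3100.00 and lay under all 3 proteins over 70.1%, 74.3%, 85.1% and 95.5% of their width. The last value was the highest of all 354 domains. An HCF1 score of 3100 or more was found in 32 domains, and ties at this level cannot be ranked. Repeated or high-copy sequence was not filtered out, and its part in these scores was not tested.

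Domains had close neighbours. The nearest other shared region lay at a median of 8.99 kb (quartiles 2.16 and 34.2 kb), compared with 28.4 kb (7.92 and 91.9 kb) for narrower shared regions. Another shared region was within 1000 bp in 61 domains (17.2%) and in 361 narrower shared regions (6.76%). Another domain was within 100 kb of 123 domains (34.7%, 29.8 to 40.0%), against 16% of all shared regions. In the 50 kb on each side, the median domain had 9 HCF1, 5 BAP1 and 3.5 OGT peaks, and the median narrower shared region had 5, 3 and 2. The closest domains were only a few bases apart: chr6:122539573-122546286 and chr6:122546288-122553619 were separated by 1 bp, and were counted as 2 domains by the rule.

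Some domains stood in groups. Where any 3 consecutive domains within 1 Mb were linked, 33 groups held 141 domains. The largest, on chromosome 10 from 79314639 to 80832424, held 13 domains among 65 shared regions. The next, on chromosome 17 from 33690995 to 36059060, held 12 domains among 69. These shares, 20% and 17.4%, were above the 6.22% of all shared regions, but the groups were found by their domains. In 3 compact groups all shared regions were domains: 4 of 4 on chromosome 15 from 76019613 to 76065123, 3 of 3 on chromosome 15 from 85997165 to 86036345, and 3 of 3 on chromosome 2 from 129416932 to 129462294.

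The 2 groups on chromosome 15 differed in make-up. In the group that starts at 76019613, OGT covered between 55.1% and 89.7% of the domains, with best scores from 197.24 to 1142.65. In the group that starts at 85997165, OGT covered 14.15% to 38.3%, with best scores from 55.14 to 188.97, and BAP1 covered 96.1% to 100%. BAP1 scores were 94.01 to 555.85 in the former and 453.62 to 1797.20 in the latter. The OGT shares and OGT scores of the groups did not overlap, but the scores were separated only by 188.97 against 197.24. The groups hold 4 and 3 domains and were picked from 33 groups after their values were seen. How often other groups fail to overlap was not counted. On chromosome 10, OGT covered 46.6% to 97.9% of the 13 domains and HCF1 60.2% to 100%. On chromosome 17, BAP1 covered 30.4% to 100% of the 12 domains and OGT 20.6% to 98.3%. Across the other groups the pattern was not described further.

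Each autosome held broad domains. Chromosome 11 had the most, 40, followed by chromosome 7 with 33 and chromosome 2 with 30, while chromosomes 12 and 18 had 7 each. As a share of the chromosome's shared regions, domains ranged from 3.57% on chromosome 12 (interval 1.45 to 7.22%) and 3.66% on chromosome 5 (2.06 to 5.96%) to 9.69% on chromosome 6 (6.37 to 13.97%). These are the extremes of 19 chromosomes. The intervals of chromosomes 5 and 6 did not overlap, while those of chromosomes 12 and 6 did. The interval of chromosome 6 began just above the 6.22% of all autosomes, and that of chromosome 5 ended below it. These intervals take domains as independent, but domains stood in groups. On chromosome 6, 6 of the 25 domains lay in 1 group of 689 kb. No difference between chromosomes is therefore drawn from the intervals.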

How the data were processed

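The authors deposited 1 peak list for each of 3 ChIP libraries, with a chromosome, start, end and score per peak. The lists held 17662 BAP1, 31421 HCF1 and 10337 OGT peaks. GSNAP and MACS 1.4 were used on build mm9, per the submitters' processing notes, with settings that the sources used here do not give. The score deposited by the authors has no stated definition, and its lowest value was 50.01, 50.0 and 50.0 in the 3 lists. Read totals are unknown.

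Starts were read as counted from 0 and are printed counted from 1. Peaks were merged and measured with Python 3.11.15, pandas 2.3.3 and scipy 1.17.1, and the code was tested on simulated peaks. A percentile is the rank of a score in its whole list, and the top decile lies above percentile 90. The best peak has the highest score, then the greatest width. The gene and promoter tables supplied are for GRCm38, and 4 domains end beyond the last gene of their chromosome in it. No gene or sequence was therefore assigned, and planned gene and sequence results were not run.

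Domains named are the 10 widest, the 5 with the highest lowest percentile, the 3 with the most peaks (ties by width), the 2 with the largest and smallest share per protein, 3 on each side of the width limit, and groups of domains. Of the groups, the 2 largest and the compact ones were described after their values were seen, as were the 3 domains with no base under all 3, the domains 1 bp apart and chr2:166879990-166890063. The members and rules were chosen with earlier results of these data known. The alternatives changed the width limit, score minimum, list length, joining distance, region definition and chromosomes.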

Additional observations from a re-analysis of the deposited data

How the results depend on the processing

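Under 7 alternatives 16 values were recomputed: the number and median width of domains, and 14 shares and median shares. Of the 112 values, 51 stayed within the interval of the value reported (or within 1.5 times the count), and all 16 did so with the X chromosome included. That setting gave 356 domains against 354, so its values had little room to move and say little about stability. HCF1 had the largest share more often than BAP1 under each of the 7, by the least with lists of equal length. The intervals of HCF1 and BAP1 overlapped there, with scores of at least 100 and with a span of 5000 bp under all 3 proteins. The share with both edges set by 1 protein stayed within its interval in all 7. Percentiles refer to the full lists throughout. With a limit of 4000 bp there were 630 domains (median 5142 bp), with 6000 bp 198 (7307 bp), with peaks within 1000 bp joined 791 (6803 bp), and with a span of 5000 bp under all 3 proteins 91 (8121 bp). A peak of 5000 bp or more was in 37.9%, 81.8%, 30.0% and 90.1% of these, in 75.4% with scores of at least 100 and in 74.6% with lists of equal length. At least 2 peaks of each protein were in 14.8% with 4000 bp, 44.0% with joined peaks, 27.5% with the span under all 3, 9.70% with the higher score and 11.7% with equal lengths. BAP1 had the largest share in 45.1% with the higher score, 45.5% with equal lengths and 30.7% with joined peaks. For HCF1 it was 48.5% with equal lengths and 67.4% with joined peaks, and for OGT 2.24% with the higher score and 1.90% with joined peaks. With joined peaks the median shares under BAP1, HCF1, OGT and all 3 fell to 64.4%, 80.7%, 42.0% and 29.2%, since joined regions also contain sequence under no peak. With the span under all 3 they were 91.5%, 94.5%, 72.6% and 65.0%. With the higher score, BAP1 had 90.1%, OGT 58.9% and all 3 41.5%. HCF1 had 91.6% with equal lengths, and OGT 60.7% with 4000 bp. A best peak in the top decile was found for BAP1, HCF1, OGT and all 3 in 58.6%, 83.0%, 44.6% and 26.8% of domains with 4000 bp. These were 72.0%, 91.4%, 62.7% and 44.0% with the higher score, 48.0%, 74.5%, 37.7% and 22.8% with joined peaks, and 82.4%, 98.9%, 75.8% and 63.7% with the span under all 3. With 6000 bp HCF1, OGT and all 3 had 91.4%, 61.6% and 41.9%, and with equal lengths BAP1, HCF1 and all 3 had 70.9%, 91.3% and 41.1%. The share with a peak of 5000 bp or more has to fall at 4000 bp, since regions under 5000 bp cannot hold one. Some other shifts follow at least in part from the settings. A higher width limit cannot lower the median width. Dropping low-scoring peaks takes out some domains with weak best peaks and leaves fewer peaks to count, while percentiles still refer to the full lists. A required span under all 3 favours cover by all 3. How far the settings account for these shifts, and the cause of any other shift, was not tested. Gaps, nesting, edge profiles, neighbours and groups had no alternative. No paired analysis was possible because there was 1 library for each protein. Read depth is unknown and limits what a missing peak can show.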

Other observations

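Outside chromosomes 1 to 19, the X chromosome held 35 regions with peaks of all 3 proteins, of which 2 were 5000 bp or wider. Sequences that mm9 lists as random or unplaced held 14 such regions, of which 1 was that wide. These were not counted among the domains.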
